A study of Mus musculus with 8 samples.

Results

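Genes of interferon signalling and of antigen presentation were examined in mouse lens capsules 7 days after injury, with Irf1 set against the other genes of the group. The 34 genes were chosen by symbol, and all 34 were found among the 54532 identifiers of the count table. Of these, 32 passed the filter on low counts for the main test, and Mx1 and Rsad2 did not. RNA had been sequenced in 8 libraries from wild-type C57BL/6 mice aged 6 to 8 weeks. In the 4 ASC libraries (injury-induced ASC, a model of fibrotic cataract) a 26-gauge needle had been passed through the cornea into the centre of the anterior lens capsule. In the 4 sham libraries the cornea alone had been cut and the capsule left closed. The submitters call the libraries of a group biological replicates. How many capsules or mice were pooled for each is unknown here, so the p-values measure the spread between libraries, whatever its source.

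Interferons are cytokines of antiviral defence. Type I interferons bind the receptor pair Ifnar1 and Ifnar2 and interferon gamma binds Ifngr1 and Ifngr2. The receptors signal through the Janus kinases Jak1 and Tyk2 (with Jak2 at the gamma receptor) to STAT proteins. A complex that holds Stat2 and Irf9 binds the interferon-stimulated response element (ISRE), and STAT dimers bind the gamma-activated site (GAS). Irf1 is a transcription factor that interferon gamma, NF-kB and STAT signals induce quickly and that itself acts on response elements of this kind, among them those of class I antigen presentation genes. The effectors downstream restrict viral RNA and protein, and the class I genes carry peptides to the cell surface for inspection by T cells.

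The upstream sequences of 7 of these genes are shown for the elements, as letters, that factors of this pathway and NF-kB are known to bind. Each is the 250 bases before the most upstream RefSeq start site listed for the gene on build GRCm38.p6, read 5′ to 3′ on the gene's strand. Capitals mark matches to a GAS (TTCNNNGAA), an ISRE (GAAA, any 2 bases, GAAA) or the NF-kB consensus, each searched on both strands, with overlapping matches merged. Irf1 lies at chr11:53769764-53770013 on the plus strand, with a GAS 90 bases and an NF-kB match 13 bases before the start site. H2-K1 (chr17:34000348-34000597, minus strand) and H2-D1 (chr17:35262844-35263093, plus strand) each hold a pair of overlapping NF-kB matches. B2m (chr2:122147437-122147686, plus strand) holds an ISRE followed by an NF-kB match. Stat2 (chr10:128270248-128270497, plus strand) holds 1 ISRE, Isg15 (chr4:156200819-156201068, minus strand) 3 overlapping ones and Ifit1 (chr19:34640639-34640888, plus strand) 2.
Irf1: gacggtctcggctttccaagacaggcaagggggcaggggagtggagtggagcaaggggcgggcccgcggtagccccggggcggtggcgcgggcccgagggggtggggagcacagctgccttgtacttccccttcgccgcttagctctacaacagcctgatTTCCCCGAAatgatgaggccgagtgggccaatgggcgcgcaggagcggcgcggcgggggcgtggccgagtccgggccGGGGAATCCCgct
H2-K1: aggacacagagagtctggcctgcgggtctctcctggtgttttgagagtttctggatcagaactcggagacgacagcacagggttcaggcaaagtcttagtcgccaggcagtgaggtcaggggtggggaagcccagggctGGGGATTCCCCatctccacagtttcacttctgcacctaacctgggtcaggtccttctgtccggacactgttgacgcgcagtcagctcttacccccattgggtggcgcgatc
H2-D1: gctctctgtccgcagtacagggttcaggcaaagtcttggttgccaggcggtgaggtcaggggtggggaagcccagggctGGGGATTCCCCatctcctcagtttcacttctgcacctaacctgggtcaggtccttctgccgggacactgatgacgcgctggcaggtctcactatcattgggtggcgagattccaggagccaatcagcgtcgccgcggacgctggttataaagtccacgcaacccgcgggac
B2m: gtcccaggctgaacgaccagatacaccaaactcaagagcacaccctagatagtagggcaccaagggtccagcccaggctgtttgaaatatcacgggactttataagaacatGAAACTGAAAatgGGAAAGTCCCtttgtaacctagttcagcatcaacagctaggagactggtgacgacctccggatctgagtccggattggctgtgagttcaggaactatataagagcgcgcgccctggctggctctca
Stat2: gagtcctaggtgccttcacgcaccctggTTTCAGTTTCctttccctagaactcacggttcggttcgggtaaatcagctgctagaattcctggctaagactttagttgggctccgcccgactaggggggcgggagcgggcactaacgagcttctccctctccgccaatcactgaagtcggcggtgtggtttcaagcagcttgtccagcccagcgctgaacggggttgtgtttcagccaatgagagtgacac
Isg15: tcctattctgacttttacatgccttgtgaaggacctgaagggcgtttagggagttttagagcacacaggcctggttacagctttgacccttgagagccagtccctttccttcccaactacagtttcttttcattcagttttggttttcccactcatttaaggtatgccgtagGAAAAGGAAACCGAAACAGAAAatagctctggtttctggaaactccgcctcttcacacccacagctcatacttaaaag
Ifit1: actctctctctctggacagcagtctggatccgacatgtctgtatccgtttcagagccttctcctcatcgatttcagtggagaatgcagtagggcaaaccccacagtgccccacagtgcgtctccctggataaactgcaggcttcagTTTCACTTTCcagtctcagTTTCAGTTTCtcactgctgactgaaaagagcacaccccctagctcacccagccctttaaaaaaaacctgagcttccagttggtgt

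RefSeq promoters were given for 28 of the 34 genes. A GAS was found in 6 of the 28, an ISRE in 9 and an NF-kB match in 7, against 7.02%, 2.98% and 3.9% of all 32851 promoters of the same length. Exact ISRE matches fell mostly among the effectors, with 6 of 10, against 1 of 6 antigen presentation genes. Imperfect elements were not counted. H2-K1 and H2-D1, for instance, both hold tttcacttct, which is close to an ISRE on the other strand. The contrast between effectors and antigen presentation genes thus holds for the exact letters only. NF-kB matches were found in 3 of the 6 antigen presentation genes, H2-K1, H2-D1 and B2m, and in 1 of the 10 effectors, Bst2. H2-K1 and H2-D1 share an identical run of 47 bases around theirs, so these matches are not independent of each other. The second start site listed for Irf1 held no match. A match is a stretch of letters, and binding was not measured.

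Library totals lay between 14420494 and 21141582 reads. The 8 lens markers (Cryaa, Cryab, Pax6, Foxe3, Cdh1, Mip, Bfsp1 and Bfsp2) were abundant in all 8 libraries. Their sum overlapped between the groups (exact permutation p = 0.571). Of the 8, 7 had positive log2 fold changes, up to 1.54. In edgeR 0 were called and 1 was under 0.05 before adjustment (12.5%, beside 14.7% of all genes), while DESeq2 called 1 and limma-voom 0. Bfsp1 was at 9.25 to 10.43 log2 CPM in sham and at 10.15 to 12.27 log2 CPM in ASC. Retinal markers (988 to 4149 CPM summed), pigment cell markers and red cell markers were present as well. The pigment cell sum was 24.9 to 196 CPM in sham and 114 to 574 CPM in ASC (exact permutation p = 0.0571). All 5 genes had positive log2 fold changes, and of these edgeR called 0, limma-voom 0 and DESeq2 1. Before adjustment in edgeR 4 were under 0.05 (80%, beside 14.7% of all genes). The red cell sum was at most 62.8 CPM in sham and at least 73.9 CPM in ASC, and the neutrophil sum at most 1.36 and at least 1.68 CPM. For both, the exact permutation p was 0.0286, the least that 4 against 4 libraries can give, and 0.143 after adjustment over 10 marker lists. Of 5 tested corneal markers 2 rose, the keratins Krt5 (0.841 ± 0.600 CPM in sham, 10.04 ± 5.99 CPM in ASC, adjusted p = 0.0387) and Krt12 (0.435 ± 0.421 and 4.27 ± 1.51 CPM, adjusted p = 0.0395; SD, n = 4 each), while the corneal sum, mostly Aldh3a1, overlapped (exact permutation p = 0.571). The summed level of 15 macrophage and general leukocyte markers was 13.4 to 54.2 CPM in sham and 24.6 to 90.5 CPM in ASC (exact permutation p = 0.171). Of the 13 tested, 0 passed in edgeR, DESeq2 or limma-voom. In edgeR 1 was under 0.05 before adjustment (7.69%, beside 14.7% of all genes). Of the neutrophil genes, S100a8 had at most 2 reads in a library and Ly6g and Elane had 0 in all, while S100a9 reached 8 reads in ASC 4 and Ltf had 0.386 ± 0.268 CPM in sham libraries and 1.55 ± 0.954 CPM in ASC libraries (SD, n = 4 each; adjusted p = 0.241). The lymphocyte sum was 1.22 to 2.16 CPM in sham and 1.52 to 3.24 CPM in ASC (exact permutation p = 0.0571), with at most 2 reads per library for Cd3e and Cd3d. In whole capsules, a change in the number of cells of a type and a change in RNA per cell cannot be told apart.

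Irf1 rose about 4-fold, and of the 31 other genes tested only H2-K1, a classical class I heavy chain, passed the threshold with it. Levels are given as CPM, the read count relative to the library size after TMM scaling. Changes are log2 fold changes of ASC over sham with their standard error (SE), and a call is an adjusted p under 0.05 in edgeR's quasi-likelihood test over all 15857 genes tested. In that test 2 of the 32 genes rose and 0 fell, which is 6.25% against 1.02% of all genes tested (0.631% higher in ASC). Without Irf1 it was 1 of 31 (3.23%). The genes were chosen with earlier results of these data known, and Irf1 was singled out with its rise known. The counts here thus describe the group and carry no test. Before adjustment 10 of the 32 were under 0.05 (31.2%, and 29% without Irf1), beside 14.7% of all genes tested. The median log2 fold change of the 32 was 0.21, and 0.20 without Irf1, beside 0.01 for all genes. A positive value was found for 22 of the 32 (68.8%, and 67.7% without Irf1, beside 51.4% of all genes). When libraries were scaled by their totals alone, it was found for 17. The ASC libraries lay wholly above the sham libraries for 4 genes, Irf1, Irf7, H2-K1 and H2-D1. That is 12.5%, and 9.68% without Irf1, beside 3.39% of all genes. For Ifnar1 and Stat2 the ASC libraries lay wholly below (6.25%, beside 5.67%). In either direction 9.06% of all genes showed no overlap.

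**Figure D1:**
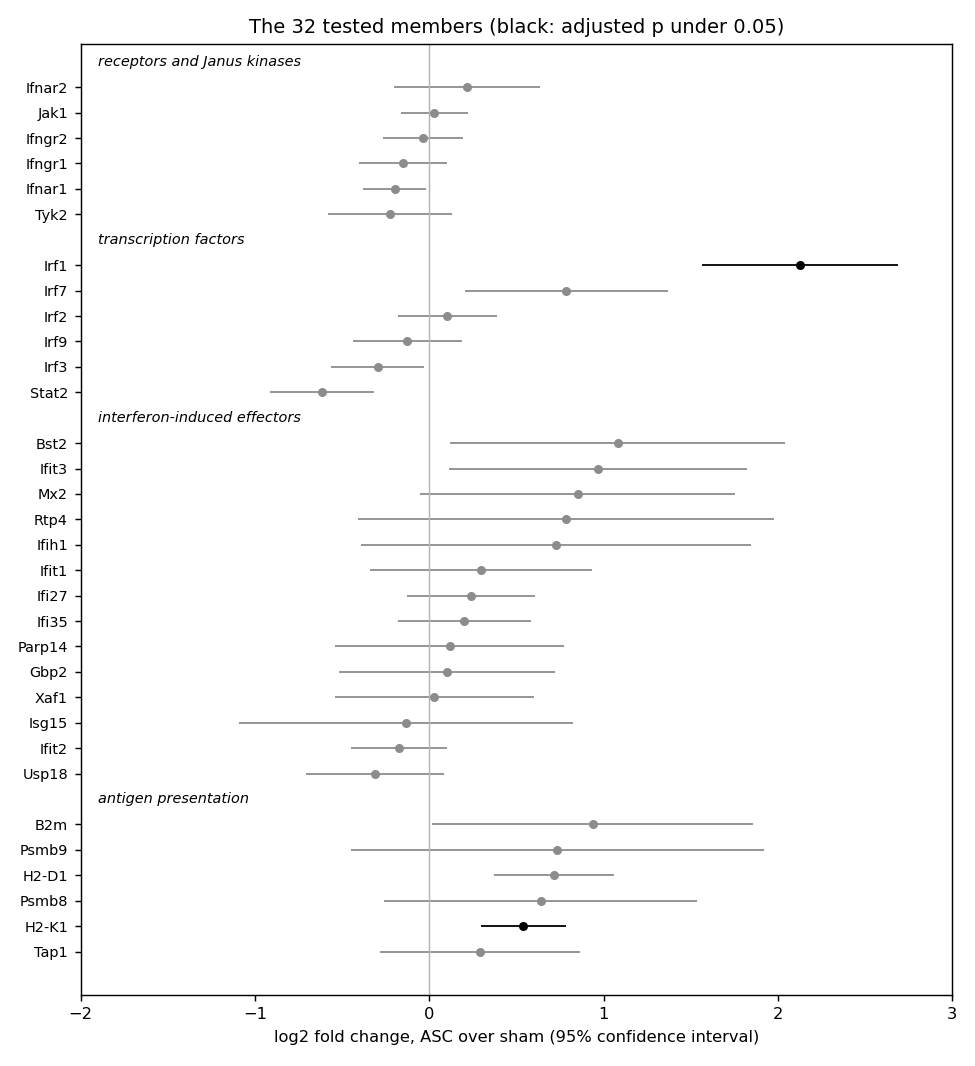
Log2 fold change of ASC over sham (x axis) with its 95% confidence interval for each of the 32 tested genes, ordered by role. Black marks an adjusted p under 0.05, reached by Irf1 at 2.13 and H2-K1 at 0.54, and the receptors and kinases lie between -0.22 and 0.22.

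The receptors and their kinases had log2 fold changes between -0.22 and 0.22, and none was called. Jak1, the kinase shared by both receptor types, was at 71.9, 68.9, 77.7 and 62.8 CPM in sham and at 72.7, 74.5, 69.7 and 70.5 CPM in ASC. Its log2 fold change was 0.03 (95% confidence interval -0.16 to 0.22). The groups overlapped fully. Ifnar1, a chain of the type I receptor, was at 39.6, 45.7, 40.9 and 43.3 CPM in sham and at 36.3, 35.6, 38.2 and 37.6 CPM in ASC. Every ASC value lay below every sham value, but the difference was small and did not pass (-0.20, SE 0.08, adjusted p = 0.299). Ifnar2 (0.22, 95% confidence interval -0.20 to 0.63), Tyk2 (-0.22, -0.58 to 0.13), Ifngr1 (-0.15, -0.40 to 0.10) and Ifngr2 (-0.04, -0.27 to 0.19) had adjusted p-values of 0.566 or more. Of these 6 genes 0 passed in edgeR, DESeq2 or limma-voom. In edgeR 1 was under 0.05 before adjustment (16.7%, beside 14.7% of all genes).

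Irf1 (ENSMUSG00000018899) was at 9.55, 9.57, 13.5 and 8.56 CPM in sham and at 52.2, 26.2, 55.9 and 46.5 CPM in ASC. Every ASC library lay above every sham library, with ASC 2 the lowest of its group. The log2 fold change was 2.13 (SE 0.25, 95% confidence interval 1.57 to 2.69, adjusted p = 0.00566), a 4.37-fold rise. Of all 15857 genes tested 100 had a larger log2 fold change, and 50 of those were called. Irf1 passed under all 18 alternative analyses with log2 fold changes of 1.97 to 2.32 and adjusted p-values up to 0.0452, reached without sham 2. Of the 5 tested corneal markers, the keratins Krt5 and Krt12 were also called higher in ASC. Krt5 was at 0.447 to 1.73 CPM in sham and at 13.3, 4.02, 6.07 and 16.7 CPM in ASC, where ASC 2 was again the lowest library. Krt12 was at 0 to 0.983 CPM in sham and at 6.31, 2.93, 4.45 and 3.37 CPM in ASC, also lowest in ASC 2. Within sham, Irf1 was highest in sham 3, while Krt5 and Krt12 were highest in sham 1. ASC 2 was also the lowest ASC library for the lens fibre genes Bfsp1 and Bfsp2. The part of corneal, lens fibre, pigment, red or other cells in the rise of Irf1 was not tested.

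Of the other 5 transcription factors 0 passed in edgeR, beside 1.02% of all genes tested. Before adjustment 3 of the 5 were under 0.05, beside 14.7% of all genes. DESeq2 and limma-voom each called 1 of the 5, Stat2, beside 3.06% and 1.01% of all their genes. Irf2, a close relative that binds the same elements and often opposes Irf1, was at 13.3, 12.7, 9.69 and 13.1 CPM in sham and at 13.8, 13.1, 13.4 and 12.1 CPM in ASC (0.10, 95% confidence interval -0.18 to 0.39). Irf9, the DNA-binding partner of Stat2, was at 10.1, 15.2, 13.2 and 15.2 CPM and at 12.4, 11.8, 13.0 and 11.8 CPM (-0.13, 95% confidence interval -0.44 to 0.18). For both the groups overlapped, and the upper ends of these intervals lie well below the lower end for Irf1. Irf3, which acts directly after viral sensing, was at 30.6, 21.7, 27.3 and 25.9 CPM in sham and at 18.6, 21.8, 21.1 and 24.4 CPM in ASC. Its values overlapped and did not pass (-0.30, SE 0.12, adjusted p = 0.293). Irf7, the amplifier of the type I response, was low at 2.72, 2.15, 1.94 and 2.90 CPM in sham and 3.57, 4.07, 3.07 and 6.01 CPM in ASC. Its groups did not overlap, but the difference did not pass (0.79, SE 0.27, adjusted p = 0.203).

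Stat2 had the opposite sign to Irf1. It was at 20.0, 15.7, 21.1 and 18.1 CPM in sham and at 11.03, 12.4, 10.8 and 14.7 CPM in ASC, with every ASC library below every sham library. The log2 fold change was -0.62 (SE 0.14, 95% confidence interval -0.92 to -0.32) and missed the threshold in edgeR (adjusted p = 0.0587), while DESeq2 (adjusted p = 0.00827) and limma-voom (adjusted p = 0.0443) called it lower. DESeq2 called 3.06% of all its genes and limma-voom 1.01%.

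**Figure D2:**
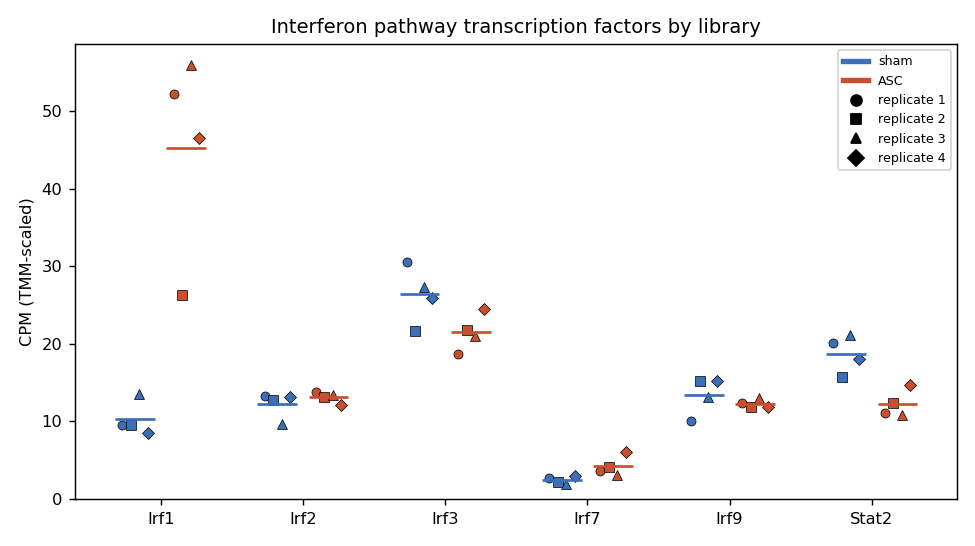
CPM (y axis, linear from 0) of the 6 transcription factors in each library, sham in blue and ASC in orange, with the replicate number as the symbol and the group mean as a bar. Irf1 goes from at most 13.5 CPM in sham to at least 26.2 CPM in ASC, while Stat2 is lower in all ASC libraries.

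Per kilobase of exon, a rough scale for comparing levels between genes, the order of the factors differed between the groups. The lengths join the exons of all annotated transcripts, from 3.44 kb for Irf3 to 7.40 kb for Irf2. The order of genes at close levels may depend on that choice. In sham the mean levels per kilobase were 7.66 CPM for Irf3, 3.16 for Stat2, 2.59 for Irf1, 2.49 for Irf9, 1.65 for Irf2 and 0.642 for Irf7. By these lengths Irf1 was below Stat2 and close to Irf9. In ASC Irf1 led with 11.4 CPM per kilobase, above Irf3 at 6.24, and Irf9 (2.27), Stat2 (2.06), Irf2 (1.77) and Irf7 (1.11) followed.

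Within each library Irf1 was also set against every other tested gene of the group as a log2 ratio of their CPM (prior count of 2). The mean ratio was higher in ASC for all 31, by 0.86 (Bst2) to 2.70 (Stat2), with a median shift of 1.88. For 22 of the 31 the 4 ASC ratios lay wholly above the 4 sham ratios. The ratios of the other 9 (Irf7, Ifit3, Ifih1, Mx2, Bst2, Rtp4, B2m, Tap1 and Psmb9) overlapped. Because Irf1 is in every ratio and was singled out with its rise known, these counts describe the group and carry no test.

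**Figure D3:**
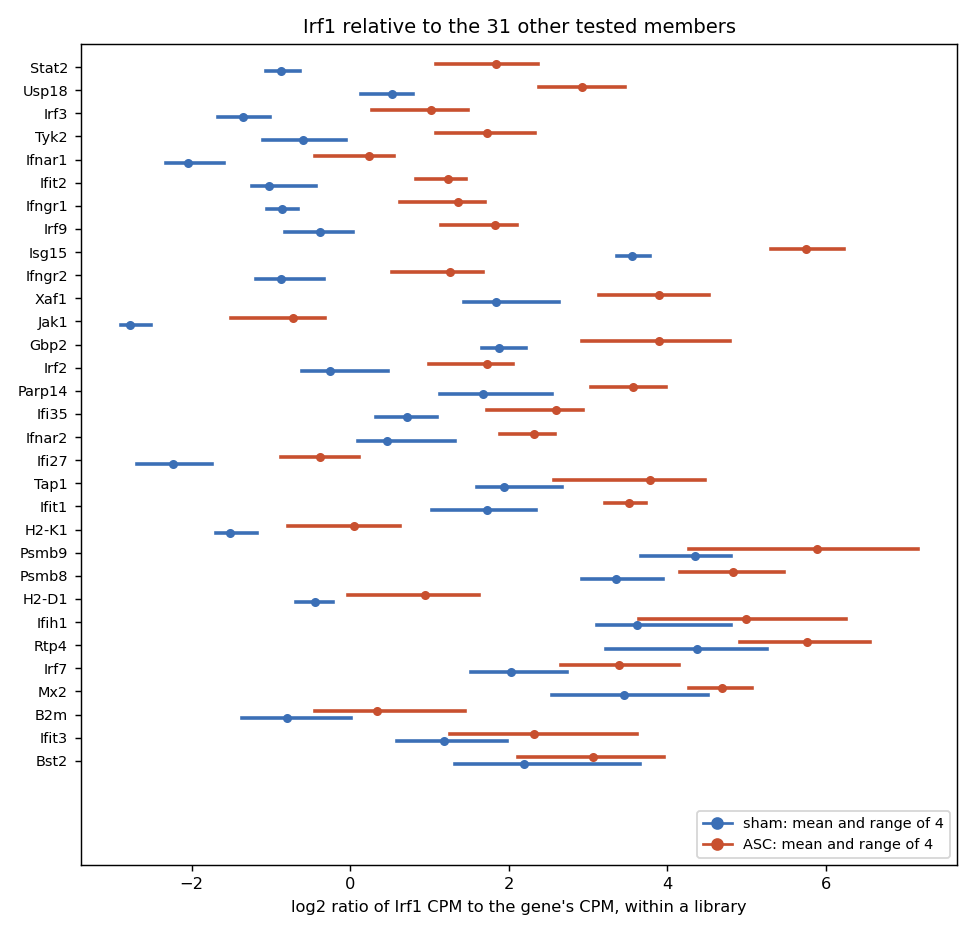
Log2 ratio of Irf1 to each of the 31 other tested genes within a library (x axis), with the mean as a point and the range of the 4 libraries as a line, sham in blue and ASC in orange. The shift is largest for Stat2 at 2.70 and smallest for Bst2 at 0.86.

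The interferon-induced effectors showed no called change. Of 16 genes 14 passed the filter, and of these 0 were called in edgeR or limma-voom. In edgeR 2 were under 0.05 before adjustment (14.3%, beside 14.7% of all genes), and log2 fold changes ran from -0.31 to 1.08 with a median of 0.22. DESeq2, which gave values for all 16, called 0. In 0 of the 14 were the groups free of overlap. Ifi27 was the most abundant at 37.5, 56.9, 45.5 and 55.7 CPM in sham and 48.4, 48.3, 61.4 and 72.4 CPM in ASC (0.24, 95% confidence interval -0.13 to 0.60). Ifit2, which binds viral RNA, was at 22.7, 22.6, 18.2 and 19.9 CPM in sham and 19.9, 14.7, 20.3 and 19.2 CPM in ASC (-0.17, 95% confidence interval -0.45 to 0.10). Both overlapped between the groups. Usp18, which removes Isg15 and damps the type I receptor, had a log2 fold change of -0.31 (adjusted p = 0.456).

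Several effectors that respond most sharply to type I interferon were barely present. Isg15, a ubiquitin-like modifier, was at 0.796, 0.654, 1.21 and 0.521 CPM in sham and 1.21, 0.489, 0.636 and 0.607 CPM in ASC, from 7 to 25 reads per library (-0.13). Mx1 had 7, 0, 0 and 1 reads in sham and 16, 3, 10 and 5 in ASC. Rsad2 (viperin) had 18, 5, 7 and 1 reads and 9, 6, 16 and 11. DESeq2 gave a log2 fold change of 2.36 for Mx1 (adjusted p = 0.313) and 0.74 for Rsad2 (adjusted p = 0.754), and neither passed at this depth.

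The largest log2 fold changes among the 14 tested effectors were those of Bst2 and Ifit3. Per kilobase of exon their ASC means, 5.85 and 5.32 CPM, lay above that of Ifit2 at 4.72 CPM. In sham they stood at 2.78 and 2.71 CPM, below Ifit2 at 5.31 CPM. Bst2 (tetherin, which holds virions at the membrane) was at 0.655, 3.78, 2.62 and 2.98 CPM in sham and 3.25, 5.97, 5.44 and 6.48 CPM in ASC (1.08, SE 0.43, adjusted p = 0.286). Ifit3 was at 2.34, 6.30, 6.20 and 4.09 CPM in sham and 4.15, 10.9, 10.99 and 11.1 CPM in ASC (0.97, SE 0.38, adjusted p = 0.284). In both, replicate 1 was the lowest of its group in sham and in ASC. Ifit3 has a close copy, Ifit3b (0.30, adjusted p = 0.709), and reads may be split between them. Of the rest, Mx2 was at 0.85, Rtp4 at 0.78, the RNA sensor Ifih1 at 0.73, Ifit1 at 0.30, Ifi35 at 0.20, Parp14 at 0.12, the GTPase Gbp2 at 0.10 and Xaf1 at 0.03, each with an adjusted p of 0.37 or more. Under scaling by totals Parp14, Gbp2 and Xaf1 changed sign.

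All 6 antigen presentation genes had positive log2 fold changes, beside 51.4% of all genes tested. The signs held under all 18 alternatives, which reuse the same libraries. In edgeR 1 of the 6 was called (16.7%, beside 1.02% of all genes). Before adjustment 3 were under 0.05 (50%, beside 14.7%). The median log2 fold change was 0.68. H2-K1 (ENSMUSG00000061232), a class I heavy chain, was at 27.1, 31.1, 30.8 and 28.0 CPM in sham and at 33.8, 45.1, 46.9 and 44.1 CPM in ASC. All ASC libraries lay above all sham libraries, and H2-K1 rose 1.45-fold (0.54, SE 0.11, adjusted p = 0.0432). H2-D1, the other classical heavy chain, was at 11.3, 15.4, 15.7 and 13.5 CPM in sham and 16.9, 26.8, 22.1 and 26.2 CPM in ASC. It also showed no overlap but just missed the threshold (0.72, SE 0.16, adjusted p = 0.058), and DESeq2 called it (adjusted p = 0.00569). Class I heavy chains are close paralogs, and the handling of multi-mapping reads is unknown here, so reads may be split between them. H2-K1 lost its call without sham 1 (adjusted p = 0.116), sham 2 (0.107), sham 3 (0.0709), sham 4 (0.112), ASC 2 (0.0828), ASC 3 (0.138) or ASC 4 (0.107), while without ASC 1 both H2-K1 (0.0125) and H2-D1 (0.021) passed. With library totals alone the log2 fold change of H2-K1 was 0.42 (adjusted p = 0.239).

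B2m, the light chain that every class I molecule needs, was at 9.50, 24.8, 24.6 and 17.3 CPM in sham and at 19.1, 35.8, 50.3 and 40.8 CPM in ASC. The groups overlapped through ASC 1, and B2m did not pass (0.94, SE 0.39, adjusted p = 0.331). Of the 18 alternatives 1 called it, the edgeR fit with the replicate block (0.95, adjusted p = 0.00733). Leukocytes are rich in class I transcripts, and the summed leukocyte markers were at 13.4, 54.2, 52.5 and 37.4 CPM in sham and at 24.6, 90.5, 73.6 and 73.0 CPM in ASC. Replicate 1 was the lowest of its group for B2m, H2-K1, H2-D1 and the leukocyte sum, in sham and in ASC alike. The part of leukocytes or corneal cells in the class I values was not tested.

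**Figure D4:**
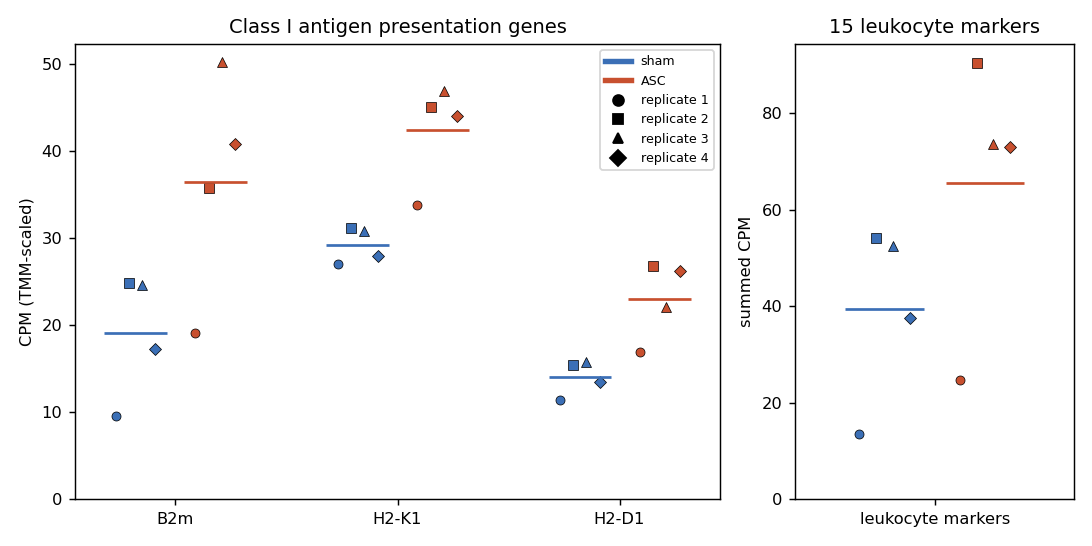
Left, CPM of B2m, H2-K1 and H2-D1 in each library (sham in blue, ASC in orange, replicate number as the symbol, group mean as a bar). Right, the summed CPM of 15 leukocyte markers in the same libraries. Replicate 1 (circle) is lowest within its group in all 4 columns.

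Tap1, a chain of the peptide transporter, had 2.58 ± 0.364 CPM in sham libraries and 3.15 ± 0.889 CPM in ASC libraries (SD, n = 4 each; 0.29, adjusted p = 0.663). The immunoproteasome subunits Psmb8 and Psmb9, which interferon gamma exchanges for the constitutive Psmb5 and Psmb6, were rare. Psmb8 was at 0.946 ± 0.385 and 1.49 ± 0.593 CPM (0.64, adjusted p = 0.51) and Psmb9 at 0.417 ± 0.190 and 0.701 ± 0.411 CPM (0.74, adjusted p = 0.573). Per kilobase, Psmb8 stood at 0.425% ± 0.214 of Psmb5 in sham and 0.628% ± 0.324 in ASC, and Psmb9 at 0.264% ± 0.135 and 0.388% ± 0.218 of Psmb6. Psmb10, the third of these subunits, was at 24.8% ± 2.91 and 27.4% ± 8.38 of Psmb7. These percentages depend on annotated exon lengths, which may differ from those behind the deposited counts. The lengths join the exons of all annotated transcripts: 3381 bases for Psmb8 and 3660 for Psmb9, against 899 for Psmb5 and 1872 for Psmb6. Where the expressed transcript of a gene is shorter than its joined length, its level per kilobase is understated, by an amount that was not tested. In all 3 pairs the SD of either group exceeded the difference between the means.

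The rest of the pathway was read from lists of other genes. Of 21 interferon genes, type I, II and III together, 16 had 0 reads in all 8 libraries, Ifnb1 and Ifng among them, and the other 5 had 15 reads in all. A count of 0 allows up to 3 reads, which is 0.140 to 0.223 CPM per library. Of 13 tested transducers and regulators 0 passed in edgeR, DESeq2 or limma-voom. Before adjustment in edgeR 2 were under 0.05 (15.4%, beside 14.7% of all genes). The most abundant, the phosphatase gene Ptpn11, was at 0.08. Of 14 tested nucleic acid sensing genes 0 passed in any of these tools. In edgeR 1 was under 0.05 before adjustment (7.14%), and the most abundant, Traf3, was at 0.16. Of 7 class II genes 0 passed in these tools, at a median of 1.12. In edgeR 2 of the 7 were under 0.05 before adjustment (28.6%). Cd74, the invariant chain, had 4.44 ± 2.56 CPM in sham libraries and 9.84 ± 3.98 CPM in ASC libraries (SD, n = 4 each; edgeR adjusted p = 0.407).

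Among 32 other interferon-induced genes tested, edgeR called 1 higher, Cxcl10, and 0 lower, at a list median of 0.16, and limma-voom called 1. DESeq2 called 3 over all 45 genes of the list, of which 5 had no adjusted p. Oas2, named after its values were seen, had no overlap in the other direction, with 5.69 ± 0.876 CPM in sham and 2.46 ± 0.823 CPM in ASC, and did not pass (-1.20, SE 0.27, adjusted p = 0.0611). Of 18 other class I genes tested 0 passed in edgeR, where 4 were under 0.05 before adjustment (22.2%, beside 14.7% of all genes), and limma-voom called 1. DESeq2 called 2 over all 20 genes of that list. The chaperone gene Canx, the most abundant, was at 0.04. Tap2, the second transporter chain, also named after its values were seen, was at 2.15, 3.55, 4.60 and 3.50 CPM in sham and 5.36, 6.03, 7.87 and 6.82 CPM in ASC, without overlap (0.92, SE 0.24, adjusted p = 0.0981). Nlrc5, the transactivator of class I genes and chosen in the same way, was at 0.609, 0.794, 2.37 and 5.06 CPM in sham and 13.2, 1.95, 9.49 and 9.31 CPM in ASC (1.99, SE 0.81, adjusted p = 0.316). As with Irf1, ASC 2 was its lowest ASC library.

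Irf1 had company among STAT and NF-kB targets, a list of 12 genes that cytokine signals are known to induce and that was drawn up with earlier results of these data known. Of the 12, 4 rose and 0 fell in edgeR (33.3%, beside 1.02% of all genes tested). Before adjustment 9 were under 0.05 (75%, beside 14.7%). DESeq2 called 7 (3.06% of all its genes) and limma-voom 5 (1.01% of all its genes). All 12 had positive log2 fold changes, beside 51.4% of all genes, at a median of 1.67. Because the list was drawn up with these data known, its counts describe it and carry no test. Nfkbia, the inhibitor that NF-kB induces as its own brake, was at 19.8, 22.5, 20.5 and 15.9 CPM in sham and 151, 99.6, 98.2 and 92.5 CPM in ASC (2.48, SE 0.17, adjusted p = 6.58e-05). Pim1, a kinase gene induced by STATs, was at 11.6, 14.8, 14.5 and 12.2 CPM and 39.9, 33.0, 30.1 and 37.9 CPM (1.41, SE 0.12, adjusted p = 0.000192). In each gene the groups were far apart. Cxcl10, a chemokine induced by interferon gamma and NF-kB and a member of both lists, had 3, 0, 6 and 0 reads in sham and 95, 37, 130 and 66 in ASC (5.35, SE 0.72, adjusted p = 0.00702), with ASC 2 again the lowest ASC library. Ccl2 rose by 2.95 (SE 0.46, adjusted p = 0.0425), a call it kept among single omissions only without sham 1 (adjusted p = 0.0377) and lost without any other library (up to 0.103). It also lost it with library totals alone (0.0602). Nfkbia, Pim1 and Cxcl10 passed under all 18 alternatives.

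**Figure D5:**
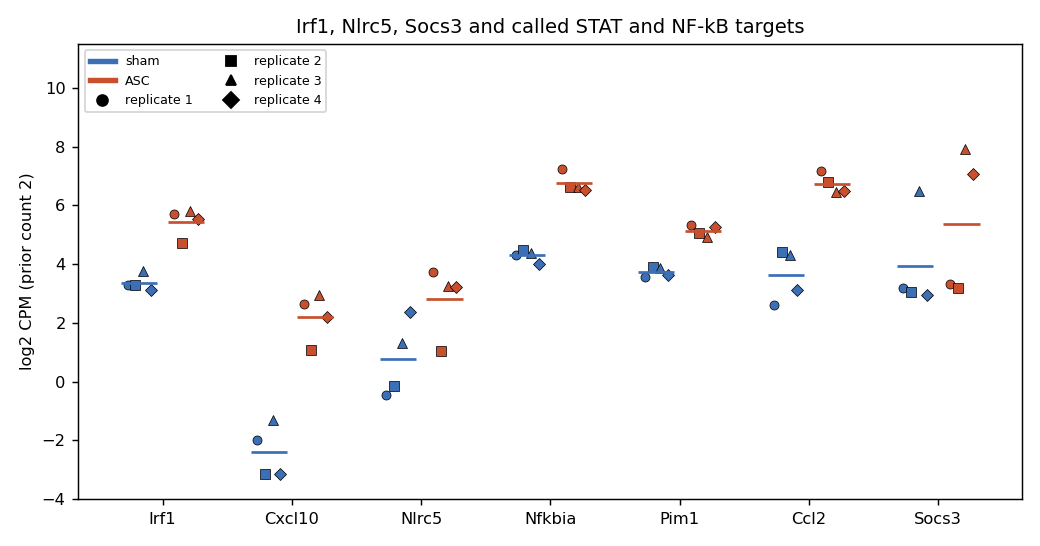
Log2 CPM with a prior count of 2 (y axis) of Irf1, Nlrc5, Socs3 and the 4 called STAT and NF-kB targets in each library, sham in blue and ASC in orange, with the replicate number as the symbol and the group mean as a bar. Irf1, Cxcl10, Nfkbia, Pim1 and Ccl2 separate the groups, and Nlrc5 and Socs3 overlap.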

How the data were processed

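The authors deposited raw whole-number counts of reads per gene, 1 table for all 8 libraries. The submitters' processing notes name CASAVA, fastp, HISAT2 (2.0.5) and featureCounts (1.5.0-p3). Genome build, annotation, strand and multi-mapping settings: not given in the sources used here. In R 4.3.3, edgeR 4.0.16 was run on these counts: filterByExpr left 15857 genes, TMM set the scaling, and ASC was compared with sham by the quasi-likelihood test with robust estimation and Benjamini-Hochberg adjustment over all genes tested. The SE is the log2 fold change divided by the root of F. Alternatives were DESeq2 1.42.0, limma-voom (limma 3.58.1) with quality weights, other scalings and filters, crystallins left out, no robust estimation, a replicate block and each library left out. The script was tested on simulated data. Exon lengths are from GENCODE mouse release 21 and join all annotated exons of a gene, and promoters are from RefSeq. No 2 libraries of a group agreed within sampling noise. The members and lists were chosen with earlier results of these data known. Named were all members, and from each other list up to 4 called genes with the largest change or else the most abundant one. Ifit3b was named as a copy of Ifit3, and Oas2, Tap2, Nlrc5, Socs3 and the markers named were chosen after their values were seen. Counts carry no molecular identifiers, so limits from a count of 0 cover counting error only.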

Additional observations from a re-analysis of the deposited data

Results flagged for a closer look

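Among 64 groups of 4 libraries (32 tested genes in sham and in ASC), 3 held a library whose gap to its neighbour took up more of the group's log2 CPM range than the 95% critical value of Dixon's test allows, and chance flags about 1 in 20 such groups. In sham, Irf2 was at 9.69 CPM in sham 3 and at 12.7 to 13.3 CPM in the others (gap over range 0.868). Tap1 in sham was lowest in the same library, with 2.03 CPM against 2.71 to 2.81 CPM (0.887). In ASC, Ifit3 was at 4.15 CPM in ASC 1 and at 10.9 to 11.1 CPM in the others (0.986), and without ASC 1 its log2 fold change was 1.21 (edgeR adjusted p = 0.0987).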

How the results depend on the processing

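The number of genes called, 162 (100 higher, 62 lower), became 571 with DESeq2, 712 without a low-count filter, 44 at an adjusted p threshold of 0.01, and 56 to 228 when single libraries were left out (79, 56, 109 and 67 without sham 1 to 4, and 101, 228, 72 and 67 without ASC 1 to 4). With library totals as the only scaling, the median over all genes was -0.116 in place of 0.008 (log2), and the calls were 75 higher and 70 lower. The replicate block gave 130 higher and 39 lower of 169. Of the 34 genes, 2 were called in the main analysis, 4 with DESeq2 (Irf1, H2-K1, H2-D1, Stat2), 6 without a filter (these with Bst2 and Ifit3), 1 (Irf1) with upper quartile scaling, with library totals, without robust estimation and at 0.01, 5 with the replicate block (Irf1, H2-K1, H2-D1, B2m, Ifit3), and 1 to 3 when single libraries were left out. Same-numbered libraries deviated together in 2 of 4 pairs (correlations 0.22, 0.06, 0.21 and -0.09), so the numbers were not taken as pairs; 2 of 4 sham libraries matched their own number best. Under the block Irf1 was at 2.095 (adjusted p = 0.000788), and Ccl2 lost its call (3.067, adjusted p = 0.126). Genes near 0 changed sign. With library totals these were Jak1 (-0.09943), Irf2 (-0.01354), Gbp2 (-0.02197), Parp14 (-0.01974), Xaf1 (-0.07205), Ptpn11 (-0.04771) and Canx (-0.08822), and with limma-voom Xaf1 (-0.0223). With single libraries left out, values ran from -0.02167 to 0.07972 for Jak1 (sign changed without sham 4), from -0.4755 to 0.1401 for Isg15 (sham 3, ASC 2), from -0.02905 to 0.2776 for Gbp2 (sham 1, ASC 3), from -0.1257 to 0.2643 for Parp14 (sham 1) and from -0.1311 to 0.1458 for Xaf1 (sham 3, ASC 4). The cause was not tested. Depth limits Isg15, with 7 to 25 reads per library, and Mx1 and Rsad2, which the filter left out of edgeR and limma-voom.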

Other observations

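Socs3, the feedback inhibitor that STAT3 signals induce, divided the libraries across the study's groups rather than along them. It had 89.6 CPM in sham 3, 244 CPM in ASC 3 and 135 CPM in ASC 4, and 7.67 to 9.82 CPM in the other 5 libraries (log2 fold change 1.79, SE 1.45, edgeR adjusted p = 0.634). Irf1 was divided along the groups: ASC 1, with 9.82 CPM of Socs3, had 52.2 CPM of Irf1, and sham 3, with 89.6 CPM of Socs3, had 13.5 CPM. Within each group, though, the library with the most Socs3 also had the most Irf1. Sham 3 stood above the 8.56 to 9.57 CPM of the other sham libraries, and ASC 3 had 55.9 CPM. ASC 4, also high in Socs3, had 46.5 CPM of Irf1, below ASC 1. A relation between Socs3 and Irf1 was not tested.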
